A study of Rattus norvegicus with 24 samples.

Results

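Transcripts of 8 genes that encode matrix proteases and their inhibitors were followed in the rat tibialis anterior, a fast muscle at the front of the shin, through 30 days of daily resistance training. The genes were chosen by name as Mmp2, Mmp14, Mmp9, Adamts1, Adam12, Timp1, Timp2 and Timp3, and they are 8 of 15273 gene symbols in the transcript table. In male Wistar rats, the left dorsiflexors were loaded once per day through an implanted pulse generator (SpillOver training, in which recruitment of the opposing plantarflexors stretches the contracting muscle slightly). The right muscle of the same rat carried no stimulation and served as the contralateral control. Groups of 3 rats were trained for 2, 10, 20 or 30 days, which gave 12 trained and 12 contralateral muscles, taken 1 hour after the last bout. A trained muscle therefore held both the acute response to that bout and the response to the days before it, which cannot be told apart here. Sham-operated rats were not analysed here, and the contralateral limb belonged to an animal that had undergone surgery and moved freely.

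Matrix metalloproteinases (MMPs) are zinc enzymes that cut collagens, laminins and other matrix proteins. Mmp2 and Mmp9 are gelatinases, and Mmp14 is a membrane-bound collagenase that activates the Mmp2 proenzyme at the cell surface. The tissue inhibitors of metalloproteinases (TIMPs) occupy the active site of these enzymes, and Timp2 also serves as the bridge through which Mmp14 binds the Mmp2 proenzyme. Timp3 is held in the matrix and also inhibits ADAM and ADAMTS enzymes. Adamts1 is a secreted protease of proteoglycans such as versican, and Adam12 is a membrane protease known from growing and regenerating muscle. In skeletal muscle most of these proteins are made by fibroblasts, vascular cells and immune cells of the interstitium, and matrix turnover accompanies fibre growth and repair.

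In the Rnor_6.0 assembly each gene was represented by 1 transcript. Mmp2 lies at chr19:15542765-15570612 on the minus strand, Mmp14 at chr15:33074441-33083656 on the plus strand and Mmp9 at chr3:161413298-161421521 on the plus strand. The inhibitors are at chrX:1364786-1369385 (Timp1), chr10:107338465-107386073 (Timp2) and chr7:23544215-23594134 (Timp3), all on the minus strand. Adamts1 lies at chr11:25342126-25350975 and Adam12 at chr1:205956342-206282576, both on the minus strand. Timp1 lies within the span of Syn1, a neuronal gene on the opposite strand, and Timp2 shares its span and strand with Cep295nl, so reads in the shared parts could be assigned to either gene.

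The stretch before the annotated start is shown for the members with the largest difference at 2 days that had a promoter entry, Timp1 and Adamts1, and for Mmp10, a protease outside the 8 that is described further on. The RefSeq sequences are of the GRCr8 assembly and run 5′ to 3′ along the gene's strand, from 250 bases before the start up to it. Entries were found for 5 of the 8 members. Their coordinates are chrX:3771123-3771372 (Timp1, minus strand), chr11:38427385-38427634 (Adamts1, minus strand) and chr8:12974457-12974706 (Mmp10, plus strand).
Timp1: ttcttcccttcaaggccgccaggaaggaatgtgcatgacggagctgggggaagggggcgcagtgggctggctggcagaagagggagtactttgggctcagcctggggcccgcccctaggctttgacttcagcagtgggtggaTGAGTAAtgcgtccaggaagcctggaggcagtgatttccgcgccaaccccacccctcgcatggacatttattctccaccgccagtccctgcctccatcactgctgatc
Adamts1: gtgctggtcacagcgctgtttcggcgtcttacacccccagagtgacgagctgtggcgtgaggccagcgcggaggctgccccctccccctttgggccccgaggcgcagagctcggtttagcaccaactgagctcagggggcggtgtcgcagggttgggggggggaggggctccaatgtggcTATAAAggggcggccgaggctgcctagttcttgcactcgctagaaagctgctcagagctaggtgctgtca
Mmp10: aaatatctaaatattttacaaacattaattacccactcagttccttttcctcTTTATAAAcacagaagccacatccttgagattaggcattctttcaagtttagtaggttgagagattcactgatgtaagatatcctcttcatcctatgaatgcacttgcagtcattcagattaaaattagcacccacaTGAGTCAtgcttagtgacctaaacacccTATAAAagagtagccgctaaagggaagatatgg
Capitals mark the letters that a search of both strands matched. In Timp1 they are TGAGTAA, a variant of the AP-1 site, 108 bases before the start, and 2.38% of 33469 windows of this length held that heptamer. In Mmp10 they include TGAGTCA, a form of the AP-1 consensus TGANTCA, 61 bases before the start (6.34% of windows). The TATA box letters TATAAA were found 70 bases before the start in Adamts1 and at 33 and 196 bases in Mmp10, where the second match overlapped its reverse complement (12.9% of windows). No window of Timp2, Timp3 or Adam12 matched any motif searched, which were these 3, the cyclic AMP response element TGACGTCA (1.59% of windows), the STAT motif TTCNNNGAA (7.67%) and the CArG box (1.5%). The motifs were chosen after the sequences had been seen, so these shares do not measure chance. A match describes letters only and was not tied to binding here.

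Levels are TPM-type values, per transcript length and summing to the same total in every muscle, divided by a median-of-ratios factor of 0.778 to 1.14. In the 12 contralateral muscles Timp2 was the most abundant of the 8 at 16.4 ± 2.6 (SD, n = 12), followed by Timp3 at 9.90 ± 2.42 and Mmp2 at 9.38 ± 2.36, which lay within each other's spread. Adamts1 stood at 5.79 ± 0.94, Mmp14 at 3.15 ± 1.09 and Timp1 at 1.56 ± 1.06. Adam12 (0.0558 ± 0.070) and Mmp9 (0.00962 ± 0.024) were at the edge of detection. Because low values came in steps, the reads behind each value could be recovered up to the unit of 1 read or read pair. Timp1 rested on 1 to 28 reads per contralateral muscle (median 8.5) and 20 to 156 per trained muscle (median 40), Mmp2 on 116 to 347 and 244 to 724. Relative depth, as the worth of 1 read, differed by 1.75 times between the extreme muscles, and replicate 2 of the 30-day contralateral muscles had the fewest reads.

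Adam12 and Mmp9 reached a value of 1 in none of the 24 muscles and were not tested. The other 6 members were, and each of them also reached a value of 1 in at least 8 of the 12 contralateral muscles alone. The differences below are on the log2(value + 1) scale, which understates the change of low genes such as Timp1, and came from limma with Benjamini-Hochberg adjustment over 11196 genes and a threshold of 0.05. The 4 comparisons with training share the same 12 pooled controls, so their results are not independent of each other. In addition, each trained muscle was compared with its own contralateral muscle by fitting the rat as a block.

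**Figure D1:**
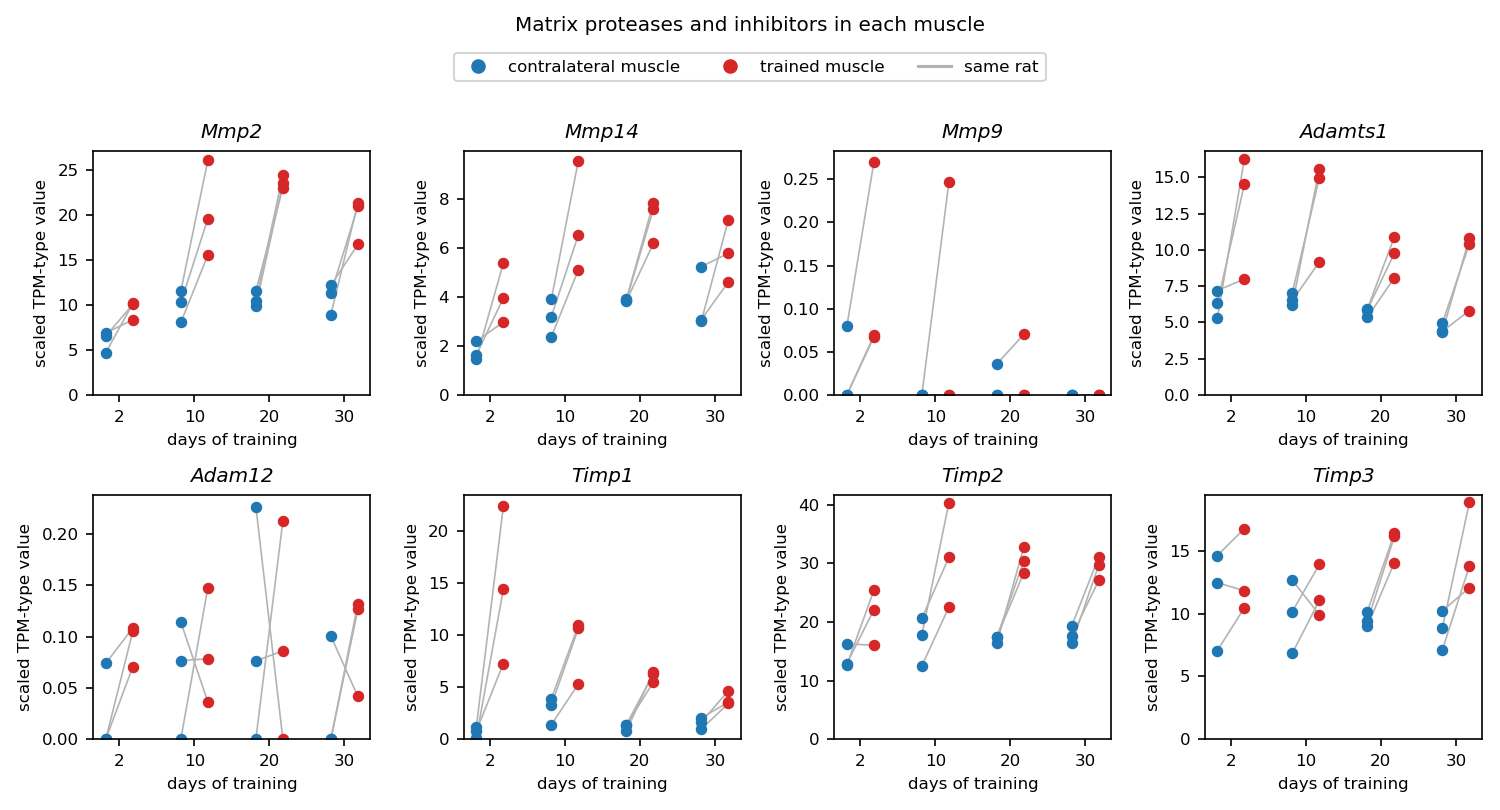
Scaled TPM-type value (linear axis, from 0) of each of the 8 genes in every contralateral (blue) and trained (red) muscle at 2, 10, 20 and 30 days, with a line joining the muscles of 1 rat and the time points set at equal distance. Trained muscles lay above their own contralateral muscle in 12 of 12 rats for Mmp2, Mmp14, Timp1 and Adamts1, and Timp1 was highest at 2 days.

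At 2 days 2 of the 6 tested members rose against the pooled controls, Timp1 and Adamts1, where 15.4% of all tested genes were higher. At 10 days 5 rose (all but Timp3, background 15.6%), and at 20 and 30 days all 6 tested members did (background 11.7% and 11.1%). No tested member fell (13.5%, 13.3%, 9.64% and 9.46% of genes did). The median log2 fold change of the 6 was 0.35, 1.01, 0.95 and 0.79 at the successive time points, beside −0.01, −0.03, −0.03 and −0.01 over all tested genes. Against the rat's own contralateral muscle 5 members rose at each time point (background 11.8%, 12.1%, 9.94% and 7.21%), since Mmp2, Mmp14 and Timp2 then passed at 2 days while Adamts1 at 20 days and Mmp14 at 30 days no longer did. Over all 12 pairs, whatever the duration, the 6 tested members rose (19.7% of genes were higher), with the smallest average difference for Timp3 (0.45) and the largest for Timp1 (1.79). Of all tested genes 8.45% were higher in 12 of 12 pairs, as Mmp2, Mmp14, Timp1 and Adamts1 were, and Timp2 was higher in 11 and Timp3 in 10.

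The inhibitor Timp1, which binds most secreted MMPs, changed the most of the 6 tested members at 2, 10 and 20 days and over the 12 pairs. At 30 days its log2 difference against the pooled controls was 1.02, beside 1.03 for Mmp2. In the contralateral muscles Timp1 ran from 0.15 to 3.88 with a median of 1.36. In the muscles trained for 2 days it was 7.25, 22.3 and 14.4, and in those trained for 10 days 10.9, 10.6 and 5.27. It was 6.45, 6.27 and 5.46 after 20 days and 3.54, 3.42 and 4.64 after 30 days. The trained muscles at 2, 10 and 20 days all lay above every contralateral muscle (8.57%, 10% and 8.23% of genes did so), while 2 of the 3 at 30 days lay below the highest control, a contralateral muscle of a 10-day rat. The means amounted to 9.37, 5.71, 3.88 and 2.47 times the control mean.

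Against the pooled controls the log2 difference for Timp1 was 2.59 ± 0.31 (SE) at 2 days, 2.00 at 10, 1.56 at 20 and 1.02 at 30 days (adjusted p from 9.6e-07 at 2 days to 0.0204 at 30 days). Within rats the course was less even, with limma differences of 3.13, 1.38, 1.72 and 0.95 (adjusted p = 1.7e-06, 0.000915, 0.000238 and 0.016). The contralateral mean was 0.70 in the 2-day rats and 2.84 in the 10-day rats. A limma F test over the 4 trained groups found Timp1 to differ with the time point (adjusted p = 0.0387), as it also did with the rat as a block (adjusted p = 0.0214). Taken directly, the muscles trained for 30 days were lower than those trained for 2 days by a log2 difference of −1.57 ± 0.39 (adjusted p = 0.00816), and by −2.18 when each was first set against its own contralateral muscle (adjusted p = 0.00511). The call at 30 days against the pooled controls was lost when any 1 of the 3 trained muscles of that time point was left out (adjusted p = 0.054, 0.057 and 0.11). It was also lost in limma with the controls of the same time point and no rat block (adjusted p = 0.0706).

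Mmp2, the gelatinase, showed a different course. The contralateral muscles ranged from 4.71 to 12.2 with a median of 10.1. The trained values were 8.36, 10.2 and 10.1 at 2 days, 26.1, 19.6 and 15.6 at 10 days, 23.03, 23.5 and 24.5 at 20 days, and 21.4, 16.7 and 20.98 at 30 days. From 10 days on, every trained muscle exceeded every contralateral muscle (10%, 8.23% and 7.48% of genes at 10, 20 and 30 days). The 20-day muscles were closely grouped (23.7 ± 0.72, SD, n = 3). The log2 difference was 0.06 ± 0.19 at 2 days (adjusted p = 0.852), then 1.06, 1.29 and 1.03 (adjusted p = 0.000154, 2.44e-05 and 0.000398). With the 3 contralateral muscles of 2 days left out of the controls, an alternative chosen after seeing the data, the 2-day difference became −0.12.

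The 2-day controls bear on that first value. The contralateral muscles of the 2-day rats held 6.06 ± 1.18 of Mmp2, against means of 9.98, 10.7 and 10.8 at the later time points. The same muscles had the lowest control mean of Mmp14 (1.77), Timp2 (13.9) and Timp1 (0.70). Timp3 went the other way, with its highest control mean in them (11.4), and Adamts1 had its lowest control mean at 30 days (4.57). A limma F test over the 4 contralateral groups did not pass after adjustment for any of the 6 tested members (Mmp2 adjusted p = 0.165, unadjusted 0.000592; Mmp14 unadjusted 0.00329; Timp1 unadjusted 0.0147), and it passed for 0.152% of genes. Against its own contralateral muscle Mmp2 rose already at 2 days, in 3 of 3 rats, with a log2 difference of 0.59 ± 0.15 (adjusted p = 0.0157). The trained groups differed for Mmp2 in the F test (adjusted p = 0.00451, background 12%), but their within-rat differences did not pass (adjusted p = 0.513, background 1.14%).

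Mmp14, the membrane-bound activator of Mmp2, lay between 1.48 and 5.25 in the contralateral muscles (median 3.15). Its trained values were 2.98, 5.39 and 3.96 at 2 days and 9.58, 6.55 and 5.11 at 10 days. They were 6.20, 7.85 and 7.59 at 20 days and 7.16, 4.62 and 5.80 at 30 days. All 3 muscles lay above the control range at 20 days (8.23% of genes did so), and 2 of 3 did at 10 and at 30 days. The log2 differences were 0.32 ± 0.22 at 2 days (adjusted p = 0.279), 0.97 at 10 days (adjusted p = 0.0014), 1.03 at 20 days (adjusted p = 0.0012) and 0.76 at 30 days (adjusted p = 0.0145). Within rats the order was otherwise, with 0.86 ± 0.19 at 2 days (adjusted p = 0.00526) and 0.53 at 30 days (adjusted p = 0.0821).

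Timp2, which joins Mmp14 to the Mmp2 proenzyme, rose against the pooled controls from 10 days on. It ran from 12.5 to 20.6 in the contralateral muscles (median 16.9). Training gave 16.03, 25.4 and 22.1 at 2 days, 40.3, 31.0 and 22.5 at 10 days, 28.4, 30.4 and 32.8 at 20 days, and 29.8, 27.1 and 31.2 at 30 days. From 10 days on no trained muscle overlapped the controls, and at 2 days 1 of the 3 did. Of all tested genes 10%, 8.23% and 7.48% had all 3 trained muscles above every control at 10, 20 and 30 days. The log2 difference was 0.34 ± 0.15 at 2 days (adjusted p = 0.0988) and 0.87, 0.87 and 0.81 afterwards (adjusted p = 0.000116, 0.000174 and 0.000443). Within rats it was 0.56 at 2 days (adjusted p = 0.0292). Across the 24 muscles Mmp2, Mmp14 and Timp2 followed each other closely, with Pearson r of 0.935 for Mmp2 with Mmp14, 0.923 for Mmp2 with Timp2 and 0.932 for Mmp14 with Timp2, which describes muscles that share the training contrast.

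Adamts1, the versican-cleaving protease, rose at 2 days, as Timp1 did. The contralateral muscles were tightly grouped between 4.35 and 7.20 (median 5.91). The trained values were 16.2, 7.99 and 14.5 at 2 days and 15.6, 9.17 and 14.98 at 10 days. They were 10.9, 8.09 and 9.77 at 20 days and 10.4, 10.8 and 5.82 at 30 days. Only the third muscle at 30 days fell inside the control range. At 2, 10 and 20 days 8.57%, 10% and 8.23% of tested genes had all 3 trained muscles above every control. The log2 difference was 0.99 ± 0.18 at 2 days, 1.05 at 10, 0.64 at 20 and 0.53 at 30 days (adjusted p = 0.000236, 0.000119, 0.0135 and 0.0423). The last of these rested on single libraries and passed neither when trained replicate 1 or 2 nor when contralateral replicate 1 or 2 of 30 days was left out (adjusted p = 0.207, 0.259, 0.053 and 0.056). Within rats the limma differences were 0.89, 0.87, 0.65 and 0.81 (adjusted p = 0.0118, 0.0134, 0.0614 and 0.0316). The contralateral muscles of the 30-day rats had the lowest control mean of Adamts1 (4.57). A limma F test over the 4 trained groups did not pass (adjusted p = 0.27, and 0.935 with the rat as a block).

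Timp3, the matrix-bound inhibitor, passed against the pooled controls at 20 and 30 days only. Contralateral values were spread from 6.86 to 14.7 (median 9.80). Trained values were 16.8, 10.5 and 11.9 at 2 days, 11.1, 9.93 and 13.9 at 10 days, 14.1, 16.4 and 16.2 at 20 days, and 18.9, 12.1 and 13.8 at 30 days. The ranges overlapped at every time point. The log2 difference was 0.37 ± 0.18 at 2 days and 0.23 ± 0.18 at 10 days (adjusted p = 0.123 and 0.356), then 0.63 at 20 days and 0.56 at 30 days (adjusted p = 0.0124 and 0.0282). At 20 days it passed neither without trained replicate 2 (adjusted p = 0.065) nor without replicate 3 (adjusted p = 0.055), and at 30 days neither without replicate 1 (adjusted p = 0.214) nor without replicate 3 (adjusted p = 0.069).

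The 2 members near the limit of detection gave reads rather than levels. Mmp9 had 24 reads in all 24 muscles. The muscles trained for 2 days held 2, 8 and 2 of them, those trained for 10 days 7, 0 and 0, those trained for 20 days 0, 2 and 0, and none came from 30 days. The contralateral muscles held 3 reads, 2 in a 2-day rat and 1 in a 20-day rat. Adam12 had 47 reads, 17 in contralateral and 30 in trained muscles, with at most 6 in any muscle, and its groups overlapped at every time point.

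**Figure D2:**
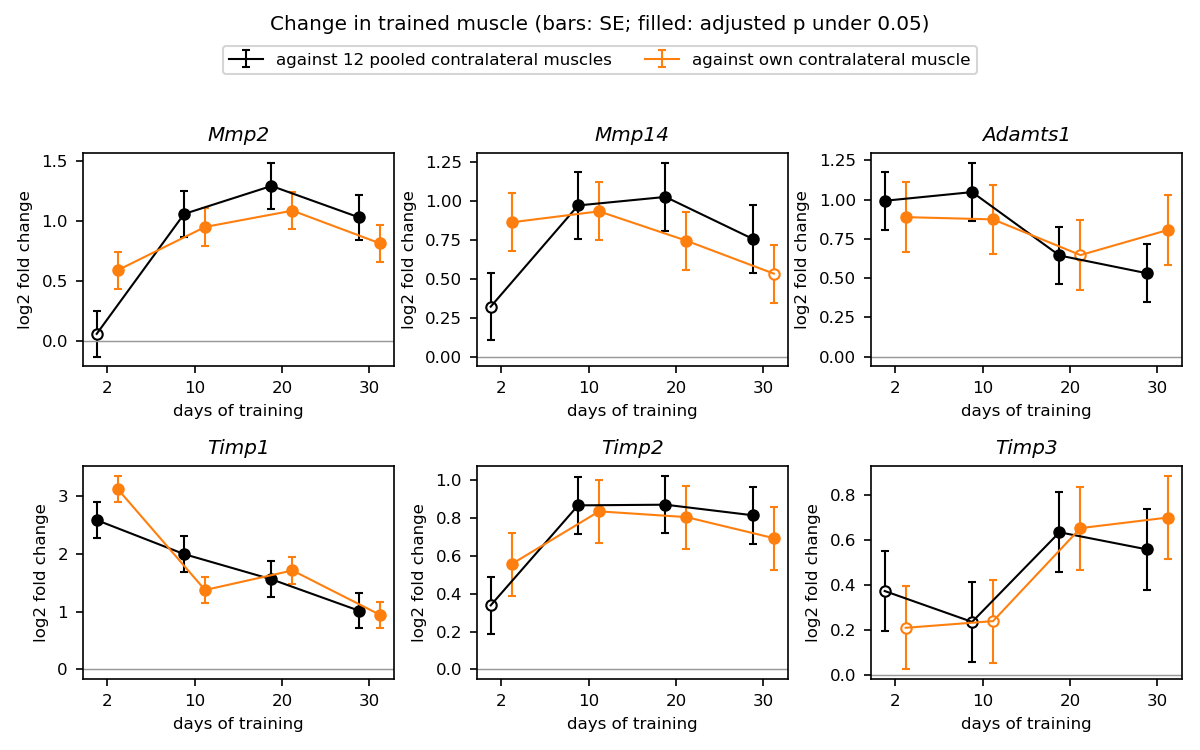
Log2 fold change (vertical axis, SE bars) of the 6 tested genes at 2, 10, 20 and 30 days (equal spacing), against the 12 pooled contralateral muscles (black) and against the rat's own contralateral muscle (orange), with filled points where the limma adjusted p was under 0.05. Timp1 starts at 2.59 and ends at 1.02 against the pooled controls, while Mmp2 starts at 0.06 and reaches 1.29 at 20 days.

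The make-up of the TIMP transcripts shifted as Timp1 rose. Timp1 made up 4.10% ± 2.42 (SD, n = 12) of the sum of Timp1 to Timp4 in the contralateral muscles, with a range of 0.456% to 9.63%. In the trained muscles its share was 26.2% ± 9.7 after 2 days and 14.98% ± 3.8 after 10, and it ended at 10.4% ± 1.6 and 7.06% ± 1.505 for the later groups (n = 3 each). At 2 and 10 days every trained muscle lay above the highest contralateral share. The summed TIMP level per unit of Mmp2 plus Mmp14 was 3.16 ± 0.92 in the controls. It was 3.93 ± 0.17 at 2 days, beside 4.45 ± 0.50 in the contralateral muscles of the same rats, and 2.17 ± 0.19, 1.89 ± 0.055 and 2.18 ± 0.19 at the later time points. The contralateral muscles of those later rats held 3.11 ± 0.46, 2.45 ± 0.19 and 2.62 ± 0.65, so the difference at 30 days lay within the spread of the controls. These are ratios of transcript levels and describe no enzyme activity.

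Timp4, the inhibitor most characteristic of heart and skeletal muscle, was singled out after its values were seen because it went the other way. The contralateral muscles ran from 5.77 to 12.5 (median 9.38), and the trained ones were 5.14, 5.11 and 4.08 at 2 days, 7.42, 6.28 and 6.50 at 10 days, 5.54, 5.004 and 8.13 at 20 days and 9.45, 8.04 and 3.73 at 30 days. It was lower in the trained muscle of 12 of 12 rats, on the scaled and on the deposited values alike. The share of all genes lower in 12 of 12 rats was not computed, and 2290 of 11196 tested genes were called lower over the 12 pairs. Against the pooled controls it fell at 2 days only (log2 difference −0.77 ± 0.20, adjusted p = 0.0047). Within rats it also fell at 10 days (−0.60, adjusted p = 0.0019) and over the 12 pairs (−0.49, adjusted p = 2.45e-05).

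Among the other MMPs 12 of 19 were in the table and 5 were tested, of which 2, 2, 2 and 1 rose at 2, 10, 20 and 30 days and none fell. Mmp10, stromelysin 2, reached 1.55, 20.3 and 7.26 after 2 days of training, with at most 0.065 in any of the 12 contralateral muscles. It was tested only because of those 3 muscles. Its call at 2 days (2.92 on the log2 scale, adjusted p = 1.1e-07) and its part in these counts were therefore bound up with the filter. It was down to 0.195, 0.689 and 0 at 10 days and listed at 0 in the trained muscles of 20 and 30 days. Mmp15, the most abundant of the tested list at 11.2 ± 1.46 in the controls, stayed within 0.32 of the controls on the log2 scale and passed at no time point. Mmp19 rose at all 4, by 0.48 to 0.90.

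Of the other ADAMTS proteases 7 of 18 were tested, and 1, 4, 3 and 4 rose at the successive time points. With the rat as a block 1, 4, 4 and 3 rose and 1 fell at 2 days. These counts, like those of the other lists, stand beside 15.4%, 15.6%, 11.7% and 11.1% of all tested genes higher against the pooled controls. Adamts9 was the most abundant of the tested ADAMTS genes and stood at 1.32 ± 0.71 in the controls and 4.85 ± 1.08 at 10 days, with log2 differences of 1.38, 1.03 and 1.21 from 10 days on (adjusted p = 0.00016, 0.0036 and 0.0011). Adamts2, which trims procollagen, rose at all 4 time points, by 0.48 to 0.99. Of the other ADAM proteases 7 of 11 were tested, and 1, 4, 1 and 1 rose while Adam11 fell at 10 and 30 days. With the rat as a block 1, 2, 2 and 0 rose, and Adam11 fell at 2 days (−0.95, adjusted p = 0.0035) but did not pass at 10 or 30 days (adjusted p = 0.111 and 0.181). Adam9, the most abundant at 23.6 ± 2.68, passed at none.

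Among the other inhibitors tested, Serpine2, the most abundant at 30.9 ± 2.66, rose from 10 days on by 0.33 to 0.38, and Reck, a membrane inhibitor of MMPs, rose at 30 days (0.71). With the rat as a block Serpine2 passed at 20 days only (adjusted p = 0.0781, 0.0333 and 0.0967 from 10 days on), while Reck still rose at 30 days (adjusted p = 0.0091). The plasminogen system activates MMP proenzymes. Of the 8 tested genes of plasminogen activation and protease processing 3, 5, 5 and 5 rose and Furin fell at 30 days. With the rat as a block 3, 6, 4 and 2 rose and none fell (Furin at 30 days −0.35, adjusted p = 0.187). Plaur, the urokinase receptor, rose by 1.29, 1.90, 1.13 and 0.75, the hyaluronan receptor Cd44 by 1.60, 1.58, 1.07 and 0.95, and the MMP inducer Bsg, the most abundant at 146 ± 16.1, by 0.31 to 0.55. Plaur was at most 0.923 in the 12 contralateral muscles. It was tested only because of trained muscles, so its calls and its part in these counts were bound up with the filter. Within rats the calls of Plaur and Cd44 at 30 days and of Bsg at 2 days were lost (adjusted p = 0.102, 0.114 and 0.277).

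**Figure D3:**
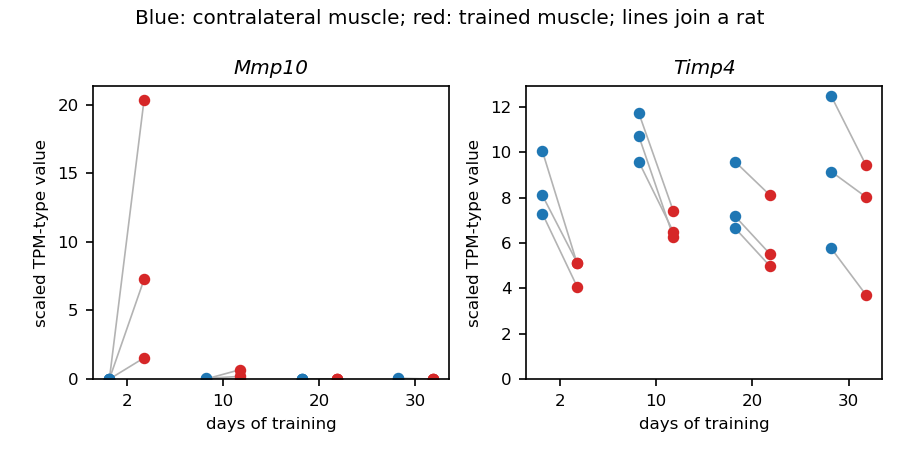
Scaled TPM-type value (linear axes, from 0) of Mmp10 and Timp4 in every contralateral (blue) and trained (red) muscle at 2, 10, 20 and 30 days (equal spacing), with lines joining the muscles of 1 rat. Timp4 was lower in the trained muscle of 12 of 12 rats, and Mmp10 was above 1 in the 3 muscles trained for 2 days alone.

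The substrates of these enzymes rose as a group. Of 11 tested matrix genes 9, 11, 11 and 10 rose at the successive time points (11, 11, 9 and 7 with the rat as a block), with a median log2 difference of 1.12, 1.45, 1.08 and 0.72, beside −0.01, −0.03, −0.03 and −0.01 over all tested genes. Col3a1, the most abundant, stood at 56.9 ± 18.7 in the controls and at 195, 349, 279 and 168 in the trained groups. Versican (Vcan), a substrate of Adamts1, was highest at 2 days at 5.57 ± 1.95 beside 0.935 ± 0.25 (log2 difference 1.73), and its difference at 30 days was 0.46 (adjusted p = 0.059). The basement membrane collagens Col4a1 and Col4a2 rose most at 10 days, by 2.04 and 1.88, and fibronectin (Fn1) rose by 1.08 to 1.45.

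**Figure D4:**
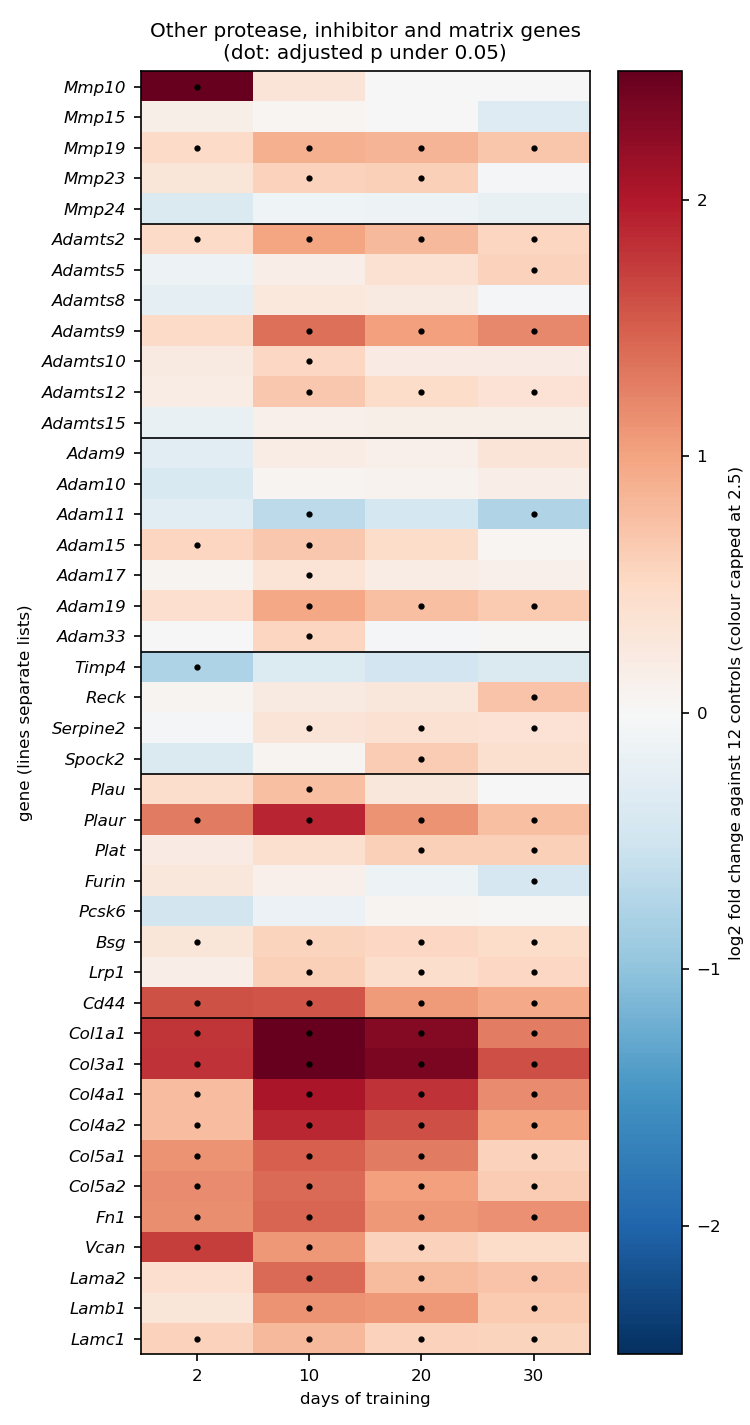
Log2 fold change against the 12 pooled contralateral muscles (colour, capped at 2.5) of the tested genes of the other MMPs, ADAMTS proteases, ADAM proteases, inhibitors, plasminogen activation genes and matrix substrates (rows, lists separated by lines) at 2, 10, 20 and 30 days (columns), with a dot where the limma adjusted p was under 0.05. Mmp10 at 2 days and Col1a1 and Col3a1 at 10 days carry the largest positive values, and Timp4 passes on the negative side at 2 days. Mmp10 was tested only because of its 3 muscles trained for 2 days.

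Genes for subunits of the dimeric factor AP-1 were also raised. Of the windows printed above, those of Timp1 and Mmp10 held AP-1 letters and that of Adamts1 held none, and a link to these genes was not tested. Of 6 tested subunit genes 6, 6, 5 and 3 rose at 2, 10, 20 and 30 days. Fos stood at 10.4 ± 6.42 in the controls and at 202 ± 68.5, 121 ± 31.4, 84.7 ± 4.52 and 56 ± 17.02 in the trained groups, and its log2 difference went from 4.30 to 2.49. Fosb rose by 3.63, 3.29, 3.40 and 2.32, and Jun, the most abundant by mean, passed at 2 and 10 days (1.77 and 0.81). Binding was not measured.

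By likeness over the 24 muscles (Pearson r of log2 values, each gene against all tested genes), the members fell near different genes. Mmp2 was most like Gsn (0.949), Sfrp4 (0.946) and Serping1 (0.940), and Mmp14 most like C1r (0.940), Col14a1 (0.937) and Serpinf1 (0.936). Timp2 was most like Serpinf1 (0.948), Smoc2 (0.948) and Medag (0.946). Adamts1 was most like the immediate early genes Atf3 (0.890), Fos (0.878) and Phlda1 (0.871), and Timp1 most like Ppial4d (0.954), Ckap4 (0.950) and Plp2 (0.950). For Timp3 the highest values were lower and belonged to Sox7 (0.843), Sptan1 (0.827) and Luzp1 (0.766).

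Whole muscle was sequenced, so a change in the number of cells of a type and a change in RNA per cell cannot be told apart. The fast fibre markers were high in every muscle, which matches the labelled tissue. Their sum was 85907 to 99119 in the contralateral muscles and 80919 to 86311, 80167 to 99417, 58665 to 94504 and 72446 to 79773 in the trained groups, so that the 30-day muscles all lay below the lowest control. Of the 8 markers 3, 5, 5 and 4 fell and 2 rose at 10 days (2, 4, 3 and 3 fell and none rose with the rat as a block). Macrophage markers were also higher in trained muscle. Of 8 tested (9 listed) 6, 7, 8 and 8 rose, and their sum was 9.55 to 26.7 in the contralateral muscles against 27.2 to 66.2, 31.5 to 72.4, 42.2 to 50.0 and 38.8 to 54.1 in the trained groups. Fibroblast markers rose in 2, 4, 5 and 5 of 6 (4, 4, 3 and 4 with the rat as a block), with sums of 51.0 to 135 in the controls and 98.6 to 149, 117 to 224, 178 to 231 and 182 to 205 in the trained groups. The part of these cells, fibres included, in the results was not tested. Per 100 units of the fibroblast marker sum Timp1 was 1.63 ± 0.88 in the controls and 11.3 ± 3.81, 4.98 ± 0.53, 3.02 ± 0.595 and 1.99 ± 0.25 in the trained groups, the last of which lay within the control spread. On the same scale Mmp2 was 10.2 ± 2.05 in the controls and between 7.83 and 11.7 in the trained group means. Mmp14 was 3.35 ± 0.78 in the controls and 3.06 to 4.02 in the trained group means, and Timp2 18.3 ± 3.88 and 15.1 to 17.8. Timp3 was 11.8 ± 5.89 in the controls and 7.36 to 11.2 in the trained group means, and Adamts1 6.95 ± 3.35 and 4.71 to 11.2. Per 100 units of the macrophage marker sum Mmp2 was 59.2 ± 14.6 in the controls and 22.7 ± 7.72, 39.4 ± 8.91, 51.9 ± 2.83 and 44.02 ± 12.2 in the trained groups. Timp1 on that scale was 9.41 ± 5.06 in the controls and 30.6 ± 3.59, 16.5 ± 1.32, 13.4 ± 2.23 and 8.55 ± 2.00 in the trained groups.

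Endothelial markers (5 of 6 listed were in the table) fell in 1 of 5 at 2 days and rose in 1, 3 and 3 of 5 at the later time points. With the rat as a block none fell, and 1, 2 and 2 rose at the later time points. Their sum was 34.3 to 46.2 in the controls and 31.1 to 33.2, 38.6 to 70.3, 56.5 to 66.7 and 48.4 to 64.7 in the trained groups. Mural and smooth muscle markers rose in 2, 3, 2 and 2 of 5 and fell in 1 at 2 days, and tenocyte markers rose in 0, 1, 2 and 0 of 2 tested. With the rat as a block 1, 2, 2 and 1 mural markers rose and none fell, and the tenocyte counts were the same. Of 6 neutrophil markers, a cell type that stores Mmp9, 3 were in the table and none was tested, and their sum was at most 2.52 in the controls and 1.63 in trained muscles. The single T cell marker tested of 4 rose from 10 days on, adipocyte markers rose in 0, 1, 1 and 1 of 3, satellite cell markers in 1, 1, 0 and 0 of 2, and Schwann cell markers fell in 2 of 4 at 30 days. With the rat as a block the T cell marker rose at every time point and adipocyte markers in 1, 0, 1 and 1. Satellite cell markers then rose in 0, 0, 0 and 1, and no Schwann cell marker fell while 1 rose at 30 days. Mitochondrial transcripts took 23.4% to 43.9% of the deposited total, with 39.9% to 43.9% in the 30-day trained muscles and 29.7% to 43.7% in their contralateral muscles. On the values as deposited the median of all tested genes at 30 days was −0.18 rather than −0.01, and Mmp14, Timp3 and Adamts1 then missed the threshold at 30 days (0.57, 0.35 and 0.33, adjusted p = 0.077, 0.215 and 0.213).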

How the data were processed

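Polyadenylated RNA of 24 tibialis anterior muscles was sequenced as paired reads from a strand-marking kit. The authors trimmed reads to a Phred score of 25, aligned them with STAR to Rnor_6.0 (rn6) in Partek Flow and quantified Ensembl release 99 transcripts. The strand setting is not given in the sources used here. They deposited TPM values (their file calls them normalized counts, but every muscle sums to 634431), with 20027 transcripts, of which 16230 were above 0 in every muscle. The gene-level table with the authors' comparisons, in which the deposited units are p-value, ratio and log2, was not used, nor were its values of signal type.

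Transcripts were summed per gene symbol and divided by median-of-ratios factors. The 11196 genes that reached 1 in 3 or more muscles were fitted with limma 3.58.1 in R 4.3.3 on log2(value + 1): 5 groups (12 pooled contralateral muscles, 4 trained groups of 3), with Benjamini-Hochberg adjustment per comparison and a threshold of 0.05. As the design used normalized values, no count model was run. Muscles of 1 rat are paired by the labels' animal number, and their deviations from the group means correlated with a median r of 0.174 (0.0277 to 0.343, 12 pairs) against −0.00636 between rats. The script was tested on simulated data. Whole reads (tolerance 0.05 of a step) were recovered for the 8 members only. Of 276 pairs of muscles none held identical values.

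Named are the 8 members, other listed genes past the threshold with a log2 change of at least 1 at any time point plus the most abundant of each list, and the 3 genes most like each tested member, of which the text gives a part (1 listed gene is not reported here). Genes named beside these were chosen after their values were seen. Members and lists were chosen with earlier results of these data known. Motifs were chosen after the sequences had been seen. Tables and plots were made with Python 3.11.15, numpy 2.4.6, pandas 2.3.3 and matplotlib 3.10.9. Alternatives were the values as deposited, a pseudocount of 0.1, other filters, time-matched controls, the rat as a block, an intensity trend, the most abundant transcript, and leaving out muscles.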

Additional observations from a re-analysis of the deposited data

Results flagged for a closer look

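The trained groups differed directly from each other for Mmp2 and Timp1. Mmp2 was higher after 10, 20 and 30 days than after 2 days, by log2 differences of 1.00 (adjusted p = 0.0305), 1.23 (adjusted p = 0.00214) and 0.97 (adjusted p = 0.00779) in limma. When each trained muscle was first set against its own contralateral muscle, with the rat as a block, these became 0.36, 0.50 and 0.22 (adjusted p = 0.64, 0.248 and 0.635), and the contralateral Mmp2 of the 2-day rats was the lowest of the 4 control groups. Timp1 was lower after 30 days than after 2 days, by −1.57 (adjusted p = 0.00816) and by −2.18 with the rat as a block (adjusted p = 0.00511). Without replicate 2 of the 2-day trained muscles, which had the highest Timp1 value, the difference was −1.22 (adjusted p = 0.083).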

How the results depend on the processing

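The number of members called was 2, 5, 6 and 6 at 2, 10, 20 and 30 days, 6 over the 12 pairs, 2 between trained time points and 0 between contralateral time points. The values as deposited left 3 at 30 days. A mean of at least 10 left only 3 members to test, and 0, 2, 3 and 3 were called, with 3 over the pairs and 1 between trained time points. Time-matched controls gave 5 at 2 days and 3 at 30 days. Between trained time points 1 member was called with a pseudocount of 0.1, with no filter and with the most abundant transcript. With the rat as replicate block 5 were called at 2 days and 1 between trained time points, and the block moved no other count of called members by over 1.5 times. In 12 pairs fitted with no replicate block, 6 were called. Leaving out 1 muscle or rat gave 2 to 3 at 2 days, 5 at 10 days, 4 to 6 at 20 days, 2 to 5 at 30 days (2 without replicate 1, 3 without replicate 3), 6 over the pairs, 1 to 3 between trained time points (1 in 7 of 12 cases) and 0 between contralateral ones. With 1 muscle left out, the groups of 2 were taken to vary like the others. With the 9 controls of 10, 20 and 30 days Mmp2 at 2 days was −0.12 in place of 0.06. This setting and leaving out contralateral replicate 2 of 30 days were chosen after seeing the data. The cause of these shifts was not tested. Depth limited Timp1 in the contralateral muscles, and the filter on low values left Mmp9 and Adam12 untested.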

Other observations

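Proteases outside the tested set were low throughout. The collagenases Mmp8 and Mmp13 had control means of 0.0725 and 0.128, and Mmp13 was listed at 0 in every muscle trained for 2 or 20 days. Stromelysin 1 (Mmp3) had a control mean of 0.0593 and trained means of 0.0555 to 0.201. The aggrecanase Adamts4 had 0.192 ± 0.122 in the controls and 0.402 ± 0.173, 0.883 ± 0.365, 0.462 ± 0.128 and 0.315 ± 0.136 in the trained groups, and Adam8 had 0.0597 ± 0.0626 in the controls and group means of at most 0.201 in the trained muscles. None of these passed the filter, so none was tested. They were chosen after their values were seen.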
